A study of Mus musculus with 24 samples.

Results

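Whole-genome expression was compared between pancreatic islets of 20 week old and 4 week old non-obese diabetic (NOD) mice, each measured against control islets of its own age. The value for each gene and mouse was the log2 ratio of the NOD islets over the control islets, and the comparison is the mean ratio of the 20 week mice minus that of the 4 week mice, over all genes. It used 12 of the study's 24 arrays, 6 for each age. The remaining arrays, 6 of 10 day old and 6 of 12 week old mice, entered the estimate of the spread between mice. In every group the Cy5 channel held islet RNA of 1 individual female NOD/LtJ mouse, and the Cy3 channel held RNA of a pool from 6 female NOD.B10Sn-H2b/J mice of the same age. The control strain carries the MHC of another haplotype, H2b, on the NOD background. All mice were kept pathogen-free, and islets were taken out by collagenase digestion. The labels give no blood glucose or diabetes status for any mouse.

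The NOD mouse develops autoimmune diabetes spontaneously. Leukocytes gather around and then inside the islets, a lesion called insulitis, and T cells with help from B cells and macrophages destroy the insulin-producing beta cells. The risk depends strongly on the MHC class II genes, and the congenic control strain, which carries other MHC alleles, is protected from the disease. Islets in late insulitis can hold organised lymphoid tissue with T cell zones, B cell zones and high endothelial venules, the vessels through which lymphocytes leave the blood.

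A ratio of 0 means that NOD and pool gave equal signal, and a difference of 1 on the log2 scale is a 2-fold change of the ratio. NOD RNA carried the same dye throughout, and a constant dye or strain offset of a probe drops out of the difference between ages. The pool appeared to be 1 RNA pool per age used on all 6 arrays, since its channel correlated at 0.991 to 0.999 between the 4 week arrays and at 0.995 to 0.999 between the 20 week arrays. The difference between ages therefore includes any difference between 2 pools, and the spread between pools was not measured. In the NOD channel, 42.3% to 64.6% of the probes gave signal well above background on the 20 week arrays and 50.7% to 58.1% on the 4 week arrays. The number of arrays limits the precision. Since the RNA was from whole islets, more cells of a type and more RNA per cell cannot be told apart.

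Some arrays stood apart from their age group. The array of 20 week replicate 5 had the fewest probes well above background in the NOD channel, 42.3%, followed by replicate 6 of the same age with 47.6%. Ratios of the 20 week mice correlated at 0.19 to 0.892 between mice, and at 0.736 to 0.892 without those 2. Among the 4 week mice replicate 5 had higher B cell and myeloid genes than the other 5 mice, and correlations ran from 0.324 to 0.856, or from 0.567 to 0.856 without it. No slide held arrays of both ages, so slide and age cannot be told apart. Hormone genes were among the brightest features at both ages in both channels: the mean log2 intensity of Ins2 was 17.04 ± 0.26 (SD, n = 6) in the 4 week NOD channel and 16.50 ± 1.2 in the 20 week NOD channel.

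Of 18070 genes tested, 871 (4.82%) changed between 4 and 20 weeks, where a change means a Benjamini-Hochberg adjusted p under 0.05 in limma and at least a 2-fold difference. The ratio was higher at 20 weeks for 661 genes (3.66%) and lower for 210 (1.16%), so 75.9% of the changed genes were higher. That split depended on the scaling: it was 53.4% with median centring of each array, 60.1% with the scanner's own processed signals and 62.3% in the authors' deposited value table. The median difference over all genes was -0.01. An unadjusted p under 0.05 in limma, given below for some lists, was reached by 7460 of the 18070 genes. With the adjusted p alone and no 2-fold limit, 5408 genes passed. A list given below as without change in limma can hold such genes. A change of 4-fold or more was found for 188 genes, 178 of them higher and 10 lower. The 6 mice of 20 weeks did not overlap the 6 mice of 4 weeks for 502 of the changed genes, 470 higher and 32 lower. Over all genes tested 1672 did not overlap (9.25%), 1092 higher (6.04%) and 580 lower (3.21%). Without 20 week replicate 5, 1222 genes changed, 806 higher and 416 lower, and without 20 week replicates 5 and 6 there were 1531, 950 higher and 581 lower. Leaving out 20 week replicates 1, 2 or 4 or 4 week replicate 3 gave 128, 85, 118 and 122 lower genes, and leaving out 20 week replicate 6 gave 333.

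**Figure D1:**
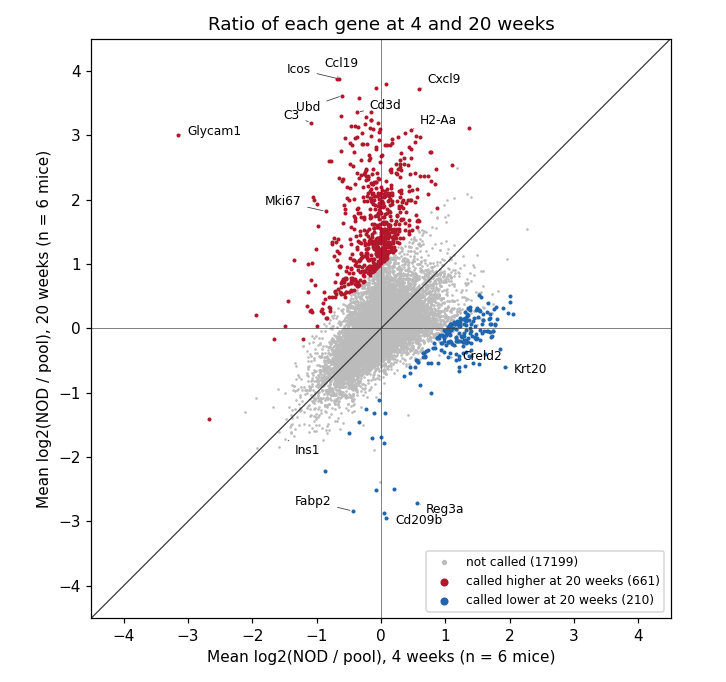
Each point is 1 of 18070 genes, with its mean log2(NOD / pool) over the 6 mice of 4 weeks on the x axis and over the 6 mice of 20 weeks on the y axis. The 661 genes called higher (red) lie mostly near 0 at 4 weeks and well above it at 20 weeks, while many of the 210 genes called lower (blue) lie above 0 at 4 weeks and near 0 at 20 weeks.

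Among the largest differences were those of genes of lymphoid tissue, T cells, complement and the response to interferon gamma. The 10 highest changed genes that were well above background on at least 1 array of each channel and age and did not overlap between the ages were Glycam1, Ccl19, Icos, C3, Ubd, Serpina1d, Ms4a4b, Cd3d, Ccl8 and Tnfrsf4, with differences from 6.17 down to 3.56. These values chose the genes and are given as a description. Here and below each difference is the fitted one in log2 units ± its standard error, with 6 mice at each age. Serpina1d encodes an alpha-1-antitrypsin of a family of near-identical copies, which its probe may not separate.

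Glycam1, a mucin-like ligand of L-selectin made by high endothelial venules (probe at chr15:103393339-103393398, mm9), had 4 week ratios from -3.88 to -1.60 with a median of -3.34. Its 20 week ratios ran from 0.36 to 3.97 with a median of 3.52. The groups did not overlap: all 4 week mice were below the pool and all 20 week mice above it, with replicate 5 nearest to 0 at both ages. The difference was 6.17 ± 0.72, a 71.8-fold change of the ratio (adjusted p = 2.56e-06). It came from both channels, since the NOD signal was 4.43 higher at 20 weeks and the pool signal fell by 1.74.

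Ccl19, a chemokine of T cell zones that draws in CCR7-bearing lymphocytes and dendritic cells (probe at chr4:42250432-42250491, mm9), had ratios from -1.72 to 0.55 with a median of -0.57 at 4 weeks and from 3.25 to 4.60 with a median of 3.82 at 20 weeks. Every 20 week mouse was above every 4 week mouse, and the difference was 4.56 ± 0.70 (adjusted p = 5.54e-05). Cxcl13, which draws B cells into follicles, was near 0 in 5 of the 6 mice at 4 weeks and at 2.28 in replicate 5. Its 20 week ratios ran from 0.01 to 3.28 with a median of 2.24, so the ages overlapped, and the difference of 1.59 ± 0.48 had an adjusted p of 0.0168. The call for Cxcl13 was lost with median centring, with the scanner's processed signals and in the deposited value table.

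Of the 27 tested genes listed for lymphoid tissue organisation, 11 rose and 0 fell, with a median difference of 0.74. The mean of the list per mouse ran from -0.36 to 0.07 at 4 weeks and from 0.49 to 1.45 at 20 weeks, so the mice of the 2 ages did not overlap. Among chemokines, 11 of 26 rose and 0 fell. Ccl8, which attracts monocytes and T cells, rose by 3.72 ± 0.29 (adjusted p = 3.23e-08), though its NOD signal was well above background on only 3 of 6 arrays at 4 weeks. Ccl5, a chemokine of activated T cells and NK cells, rose by 2.19 ± 0.52 (adjusted p = 0.00319) and lost its call with median centring, under which 5 of the 26 chemokines rose. Of the chemokine receptors, 7 of 13 rose and 1, the eotaxin receptor Ccr3, named after its value was seen, fell by 1.28 ± 0.33. Ccr7, the receptor for Ccl19, rose by 2.89 ± 0.31. Cxcr5, the receptor for Cxcl13, rose by 2.33 ± 0.29.

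The lymphocyte adhesion genes changed in the same direction, with 10 of 21 higher and 0 lower. Some genes are on several lists, here Glycam1 and Icam1 on this list and that of lymphoid tissue, so the list counts are not independent. Vcam1, an endothelial adhesion molecule for integrin-bearing leukocytes, had 4 week ratios from -0.55 to 2.03 with a median of 0.52 and 20 week ratios from 2.04 to 4.07 with a median of 2.97. The lowest 20 week mouse lay just above the highest 4 week mouse, and the difference was 2.37 ± 0.40 (adjusted p = 0.00015), while a second Vcam1 probe gave 1.03. Itgb7, the integrin chain of gut-homing and tissue-homing lymphocytes, rose by 3.07 ± 0.54, Selplg, the selectin ligand PSGL-1, by 2.82 ± 0.34 (second probe 1.64), and Fut7, which makes selectin ligands, by 2.49 ± 0.60. Of the general endothelial markers 0 of 20 passed both limits of a change, with 5 at an unadjusted p under 0.05. Pecam1 differed by 0.41 ± 0.15, below the 2-fold limit, and was called when that limit was dropped.

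**Figure D2:**
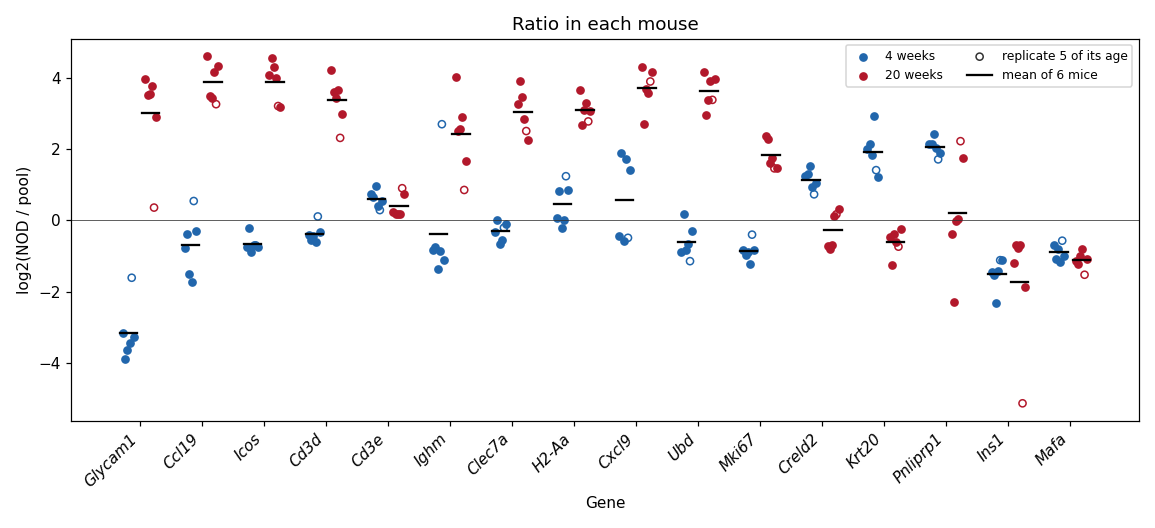
Log2(NOD / pool) of 16 genes in each mouse, 4 weeks in blue and 20 weeks in red, with replicate 5 of each age as an open circle and the mean of 6 mice as a bar. The 4 and 20 week mice are separate for Glycam1, Ccl19, Icos, Cd3d, Clec7a, H2-Aa, Cxcl9, Ubd, Mki67, Creld2 and Krt20, and overlap for Cd3e, Ighm, Pnliprp1, Ins1 and Mafa.

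T cell genes had the highest share of changes among the leukocyte lists. Of 22 T cell surface and lineage genes, 19 rose and 0 fell, with a median difference of 1.85. The mean of the list lay between -0.05 and 0.25 in the 4 week mice and between 1.03 and 2.46 in the 20 week mice, with 20 week replicate 5 lowest. Of 15 T cell receptor and signalling genes 9 rose, and of 18 costimulation and checkpoint genes 13 rose, with 7 of the 18 under median centring.

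Cd3d, a chain of the CD3 complex that carries the T cell receptor's signal (probe at chr9:44794171-44794402, mm9), had ratios from -0.59 to 0.11 with a median of -0.42 at 4 weeks and from 2.31 to 4.2 with a median of 3.50 at 20 weeks. The groups were far apart, with a difference of 3.73 ± 0.49 (adjusted p = 1.04e-05). Its NOD signal was well above background on 1 of 6 arrays at 4 weeks and on 6 of 6 at 20 weeks. Cd3g, another chain of the complex, rose by 3.39 ± 0.44. The probe for Cd3e did not follow: its ratios ran from 0.29 to 0.97 with a median of 0.59 at 4 weeks and from 0.17 to 0.90 with a median of 0.20 at 20 weeks, the groups overlapped, and the difference was -0.20 ± 0.13 (adjusted p = 0.257).

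Cd8a, the coreceptor of cytotoxic T cells, had ratios from -0.08 to 0.20 with a median of -0.01 at 4 weeks and from 1.28 to 2.74 with a median of 2.14 at 20 weeks, with no overlap (adjusted p = 2.8e-06). Its signal at 4 weeks was well above background on 1 of 6 arrays in the NOD channel and on none in the pool channel, so the size of the change has no bound, and the other Cd8a probes gave 1.54 and 0.77. The Cd4 probe differed by -0.13 ± 0.06 (adjusted p = 0.089), with 4 week ratios of 0.27 to 0.62 and 20 week ratios of 0.16 to 0.30. Cd5, a surface marker of T cells, rose by 3.22 ± 0.42. Fyb and Txk, which act in signalling downstream of the T cell receptor, rose by 3.14 ± 0.43 (second probe 1.19) and 2.72 ± 0.35 (second probe 1.15). Ms4a4b, a membrane protein of T cells, rose by 3.91 ± 0.48 (other probes 3.07, 2.98 and 1.26), and Cxcr3, the chemokine receptor of type 1 T cells, by 2.79 ± 0.29.

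Icos, a costimulatory receptor induced on activated T cells (probe at chr1:61057071-61057130, mm9), ran from -0.88 to -0.20 with a median of -0.71 at 4 weeks. At 20 weeks it ran from 3.18 to 4.54 with a median of 4.02, a gap of more than 3 log2 units between the groups. The difference was 4.53 ± 0.34, or 23.1-fold (adjusted p = 2.69e-08), and 1.82 on a second Icos probe. The costimulatory receptors Tnfrsf4 (OX40) and Tnfrsf18 (GITR) rose by 3.56 ± 0.27 and 3.16 ± 0.29. Pdcd1, the inhibitory receptor PD-1, rose by 2.53 ± 0.28 (adjusted p = 1.39e-06). Foxp3, the transcription factor of regulatory T cells, was not well above background in either channel at 4 weeks or in the pool at 20 weeks. Its fitted difference of 0.30 ± 0.10 was below the 2-fold limit. With the scanner's processed signals it was 2.12, and Foxp3 was called in 2 of 26 alternatives.

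Of 15 genes of NK cells and cytotoxic granules, 8 rose and 0 fell. Nkg7, a granule membrane protein, had ratios from -0.10 to 0.53 with a median of 0.19 at 4 weeks and from 2.20 to 3.86 with a median of 2.90 at 20 weeks. The groups did not overlap, and the difference was 2.77 ± 0.30 (adjusted p = 1.31e-06; second probe 1.51). Klrd1, which encodes the receptor CD94, was not well above background in the NOD channel of any 4 week array, and with that channel set no lower than each array's lowest signal well above background it was at least 5.05-fold higher at 20 weeks (adjusted p = 1.3e-05). Cst7, an inhibitor of granule proteases, ran from 1.21 to 2.82 at 20 weeks, but was well above background in no pool channel at 4 weeks, so its size has no bound. Gzmb, a granule protease, ran from -0.20 to 0.13 at 4 weeks and from 0.43 to 1.63 at 20 weeks without overlap. Its difference of 1.00 ± 0.19 (adjusted p = 0.000396) fell just short of the 2-fold limit, and it was called in 13 of 28 alternatives.

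B cell genes rose as well. Of 19 tested, 13 rose and 0 fell, with a median difference of 1.16, and 3 rose with median centring. The list mean was below 0 in 5 of the 4 week mice and 0.70 in 4 week replicate 5, and it ran from 0.34 in replicate 5 to 1.91 at 20 weeks, so the ages overlapped: 4 week replicate 5 was above 20 week replicates 5 and 6. Ighm, the heavy chain of IgM, overlapped too: its 4 week ratios ran from -1.36 to 2.69 with a median of -0.84, with replicate 5 alone above 0, and its 20 week ratios ran from 0.85 to 4.01 with a median of 2.53. The difference was 2.78 ± 0.75 (adjusted p = 0.00829).

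Ms4a1, which encodes CD20, rose by 2.17 ± 0.53 and Pou2af1, a B cell coactivator, by 2.10 ± 0.51. Cd79b, a signalling chain of the B cell receptor, rose by 1.89 ± 0.63. These 3 genes and Ighm lost their calls with median centring and when only replicates 3 to 6 of both ages were used. Cd79b lost it in 9 of 28 alternatives, also without 20 week replicate 1 or 4 and without 4 week replicate 1, 2, 3 or 6. Tnfrsf13c, the receptor for the survival factor BAFF, rose by 2.38 ± 0.36 (adjusted p = 4.52e-05) and kept its call in every alternative tried. Of 9 plasma cell genes, 2 rose and 1 fell: Mzb1 rose by 1.34 ± 0.33, Irf4 was higher while not well above background at 4 weeks in either channel, and Derl3 fell by 1.66 ± 0.35. Mzb1 and Irf4 were not called with median centring or with replicates 3 to 6 alone, nor Irf4 without 20 week replicate 1, 2 or 3. Derl3 is a factor of protein degradation at the endoplasmic reticulum that other secretory cells also express.

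Myeloid cell genes rose too. Of 20 macrophage genes, 14 rose and 0 fell, with a median difference of 1.41, and 7 rose with median centring. The 6 not called were Mrc1 at 0.102, Cd14 at 0.119, Trem2 at 0.147, Msr1 at 0.426, Csf1r at 0.798 and Siglec1 at -0.427. Siglec1 was lower in every 20 week mouse than in every 4 week mouse, with a difference below the 2-fold limit. Clec7a, the receptor dectin-1 for fungal glucans, had ratios from -0.67 to 0.03 with a median of -0.26 at 4 weeks and from 2.26 to 3.92 with a median of 3.05 at 20 weeks. The groups were separated by more than 2 log2 units, with a difference of 3.34 ± 0.27 (adjusted p = 3.23e-08). Ctss, a protease of antigen-presenting cells, rose by 3.35 ± 0.43. The lysozymes Lyz2 and Lyz1, close copies that probes may not separate, rose by 2.92 ± 0.71 (second probe 1.24) and 2.44 ± 0.60. Both lysozymes had a 4 week replicate 5 above 1, against values at or below -0.37 in the other 4 week mice for Lyz1, and both lost their call with median centring.

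Of 13 dendritic cell genes, 7 rose and 0 fell. The 6 not called were Zbtb46 at -0.006, Xcr1 at -0.057, Flt3 at 0.405, Bst2 at 0.75, Fscn1 at 0.799 and Batf3 at 0.955. Clec9a, Cd209a and Siglech were on the array but too dim to test. Cd83, a marker of mature dendritic cells, rose by 2.60 ± 0.34 (adjusted p = 9.68e-06), and Wdfy4, which serves cross-presentation, by 2.87 ± 0.54. Itgax, which encodes CD11c, rose by 2.11 ± 0.23 on 1 probe and differed by 0.10 on a second. None of 6 neutrophil and mast cell genes changed in limma, with 1 at an unadjusted p under 0.05. Of the 15 on the array 9 were too dim to test, and 2 of the 6 were measured in all groups and channels, so changes in these cells were hardly measurable. Their median was -0.16, and 1.42 in the deposited table.

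MHC class II genes had the highest share of changes of all the lists, 9 of 10, with a median difference of 2.03 and 0 lower. The list mean ran from -0.47 to 0.48 in the 4 week mice and from 1.22 to 2.49 in the 20 week mice, without overlap. H2-Aa, the alpha chain of the I-A molecule that presents peptides to CD4 T cells (probe at chr17:34420627-34420686, mm9), had ratios from -0.21 to 1.24 with a median of 0.45 at 4 weeks and from 2.67 to 3.66 with a median of 3.07 at 20 weeks. The groups were more than 1 log2 unit apart, and the difference was 2.63 ± 0.36 (adjusted p = 1.74e-05), or 1.02 on a second probe. In the separate channels the NOD signal of H2-Aa was 4.15 higher at 20 weeks and that of the pool 1.52 higher.

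H2-Ab1, the I-A beta chain, rose by 2.41 ± 0.43, Cd74, the invariant chain that guides class II molecules to the peptide-loading compartment, by 2.92 ± 0.44, and H2-DMb1, which helps load the peptide, by 2.41 ± 0.30. Ciita, the coactivator that turns these genes on, rose by 1.43. The probes of the MHC genes need not match both haplotypes equally. An offset from this drops out of the difference between ages only if it is the same at both ages, which was not tested. Of the 10 class II genes, 7 were well above background on at least 1 array of each channel and age.

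Class II promoters are known to hold a Y box near the start of transcription, bound by the factor NF-Y. In the 250 bases before the start (RefSeq promoters, GRCm38.p6), the letters CTGATTGG stood on either strand in 3 of the 8 windows of the 7 class II genes with a window, or 37.5%, against 4.85% of the 15054 windows of all genes tested and 5.56% of those of the genes called higher. The share was 29.4% of 17 windows for MHC class I and 39.3% of 28 for the unfolded protein and stress list, on which no gene rose. The 3 windows are printed because they hold the Y box letters, which are in capitals. The first also has a second run in capitals, GCCATCTG, the E box letters known from the insulin promoter. H2-Eb1 and H2-Oa were chosen for this match after their values were seen, and they rose by 2.03 and 2.02. The Y box lay 51 to 44 bases before the start in H2-Aa, 62 to 55 in H2-Eb1 and 46 to 39 in H2-Oa. Each line is written 5′ to 3′ on the strand of its gene: minus at chr17:34287824-34288073, plus at chr17:34305617-34305866 and plus at chr17:34092129-34092378.
H2-Aa: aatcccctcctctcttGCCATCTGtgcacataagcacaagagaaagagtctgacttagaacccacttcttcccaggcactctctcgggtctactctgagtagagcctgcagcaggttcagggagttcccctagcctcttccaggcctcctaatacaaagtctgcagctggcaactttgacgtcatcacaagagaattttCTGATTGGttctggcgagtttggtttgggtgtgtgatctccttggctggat
H2-Eb1: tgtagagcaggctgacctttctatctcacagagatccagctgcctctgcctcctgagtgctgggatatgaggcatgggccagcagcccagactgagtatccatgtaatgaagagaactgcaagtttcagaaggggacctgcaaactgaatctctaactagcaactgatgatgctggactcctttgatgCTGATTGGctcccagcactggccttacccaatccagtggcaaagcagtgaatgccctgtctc
H2-Oa: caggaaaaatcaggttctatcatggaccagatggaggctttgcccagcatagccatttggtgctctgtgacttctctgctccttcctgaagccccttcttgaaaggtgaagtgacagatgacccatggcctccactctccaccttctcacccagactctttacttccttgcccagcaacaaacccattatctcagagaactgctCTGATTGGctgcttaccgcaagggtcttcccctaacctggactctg

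Of 18 genes of MHC class I and its peptide supply, 10 rose and 0 fell, and 2 rose with median centring. B2m, the light chain shared by class I molecules, had ratios from -0.08 to 1.11 with a median of 0.53 at 4 weeks and from 1.73 to 3.67 with a median of 3.04 at 20 weeks. The groups did not overlap, and the difference was 2.37 ± 0.32 (adjusted p = 1.61e-05; other probes 2.55 and 0.98). H2-K1, a classical class I heavy chain, rose by 2.14 ± 0.35 (other probes 2.09, 1.39 and 0.87). The nonclassical H2-M3 and H2-T23 rose by 1.49 ± 0.26 (second probe 0.51) and 1.46 ± 0.31, both without a call under median centring. None of the 25 constitutive proteasome subunits changed in limma, with 7 at an unadjusted p under 0.05.

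Interferon gamma is the type 1 cytokine of T cells and NK cells, and raises antigen presentation and chemokine genes in the cells it reaches. Of 28 genes on its list, 17 rose and 0 fell, with a median difference of 1.38, and 7 rose with median centring. The list mean ran from -0.48 to 1.58 in the 4 week mice and from 1.01 to 2.40 in the 20 week mice, so the ages overlapped. Ifng itself had ratios from -0.17 to 0.60 with a median of -0.11 at 4 weeks and from 1.37 to 4.30 with a median of 2.89 at 20 weeks. All 20 week mice were above all 4 week mice, and the difference was 2.76 ± 0.40 (adjusted p = 2.85e-05). Its NOD signal was well above background on 2 of 6 arrays at 4 weeks and on 6 of 6 at 20 weeks.

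Ubd, a ubiquitin-like modifier induced by interferon gamma (probe at chr17:37332688-37332747, mm9), ran from -1.14 to 0.19 with a median of -0.75 at 4 weeks and from 2.96 to 4.15 with a median of 3.64 at 20 weeks. It was separate in every mouse, with a difference of 4.22 ± 0.42 (adjusted p = 3.59e-07). Cxcl9, a ligand of the receptor CXCR3, had ratios from -0.58 to 1.88 with a median of 0.49 at 4 weeks, with 3 mice above 1 and 3 below 0. At 20 weeks it ran from 2.71 to 4.29 with a median of 3.79, above all 4 week mice, with a difference of 3.13 ± 0.39 (adjusted p = 6.49e-06). Cxcl10, another ligand of that receptor, spread from -2.16 to 2.51 at 4 weeks and from 0.83 to 3.23 at 20 weeks, and its difference of 1.72 ± 0.68 did not pass (adjusted p = 0.058), though it passed in 8 of 28 alternatives.

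Igtp, an interferon-induced GTPase that acts against intracellular parasites, had ratios from -1.2 to 2.68 with a median of 0.49 at 4 weeks and from 1.34 to 3.73 with a median of 3.03 at 20 weeks. The ages overlapped, since 3 of the 4 week mice were above 1, and the difference of 2.32 ± 0.54 (adjusted p = 0.00288) lost its call with median centring and with replicates 3 to 6 alone. Tgtp1, a related GTPase, rose by 1.97.

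The factors that interferon gamma activates bind the gamma-activated site (GAS), searched here as TTCNNNGAA, and the interferon-stimulated response element (ISRE), searched as its paired GAAA repeats with 2 bases between, both on either strand (N stands for any base). Of the 21 windows of 19 genes on the interferon gamma list, 8 held the GAS letters and 9 the ISRE letters, or 38.1% and 42.9%. Over all windows the shares were 6.07% and 2.68%. They were 8.25% and 6.57% over the 594 windows of the genes called higher, and 6.94% and 1.73% over the 173 windows of those called lower. The 25 windows of the type I interferon list, of which 3 of 27 genes rose, held them in 20% and 32%. The windows of Tap1 and Psmb9 share 225 bases and are not independent.

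The windows of Igtp and Tgtp1 are shown because both motifs stand in them in the same arrangement, GAS first and then ISRE, and both genes rose. Other windows held both motifs too, among them those of Gbp5 and Irgm2 of the interferon gamma list. So did those of Prss2 and Rnase1 of the acinar list, on which no gene rose. In Igtp the GAS lay 45 to 37 and the ISRE 34 to 25 bases before the start, and in Tgtp1 88 to 80 and 77 to 68. Both motifs are in capitals. Igtp is on the plus strand at chr11:58199306-58199555 and Tgtp1 on the minus strand at chr11:48992247-48992496 (GRCm38.p6). Tgtp1 was chosen for this match after its values were seen. The window of Ubd, the gene with the largest change on the list, held none of these letters.
Igtp: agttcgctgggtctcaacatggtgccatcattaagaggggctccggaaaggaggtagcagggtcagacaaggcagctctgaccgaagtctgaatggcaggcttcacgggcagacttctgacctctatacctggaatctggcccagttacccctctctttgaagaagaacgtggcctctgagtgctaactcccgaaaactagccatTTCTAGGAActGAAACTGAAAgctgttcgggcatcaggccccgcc
Tgtp1: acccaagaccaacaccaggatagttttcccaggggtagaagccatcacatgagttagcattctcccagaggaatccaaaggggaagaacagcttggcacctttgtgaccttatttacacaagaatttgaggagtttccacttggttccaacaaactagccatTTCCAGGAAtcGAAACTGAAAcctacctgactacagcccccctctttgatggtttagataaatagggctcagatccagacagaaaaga

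Few type I interferon genes changed. Of 27, 3 rose and 0 fell, with a median difference of 0.30, and the list mean ran from -0.65 to 1.97 at 4 weeks and from -0.05 to 2.03 at 20 weeks. The members that rose were Ifi27l2a by 2.96 ± 0.44, Zbp1, a sensor of nucleic acids, by 2.28 ± 0.36, and Trim30a by 1.60 ± 0.39. Trim30a had no call under median centring, and its second probe gave 0.72. Ifit1, which blocks translation of viral RNA, ran from -1.15 to 1.66 with a median of 0.36 at 4 weeks and from -1.19 to 2.69 with a median of -0.45 at 20 weeks. The ages overlapped, with 20 week replicates 2 and 3 above every 4 week mouse, and the difference was -0.02 ± 0.59 (adjusted p = 0.987). Irf7, the regulator of this response, differed by 0.44 ± 0.35 (adjusted p = 0.36). At 4 weeks replicate 4 was highest for Ifit1, Irf7, Cxcl10 and Igtp, and at 20 weeks replicates 2 and 3 were highest for Ifit1, Irf7 and Cxcl10.

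**Figure D3:**
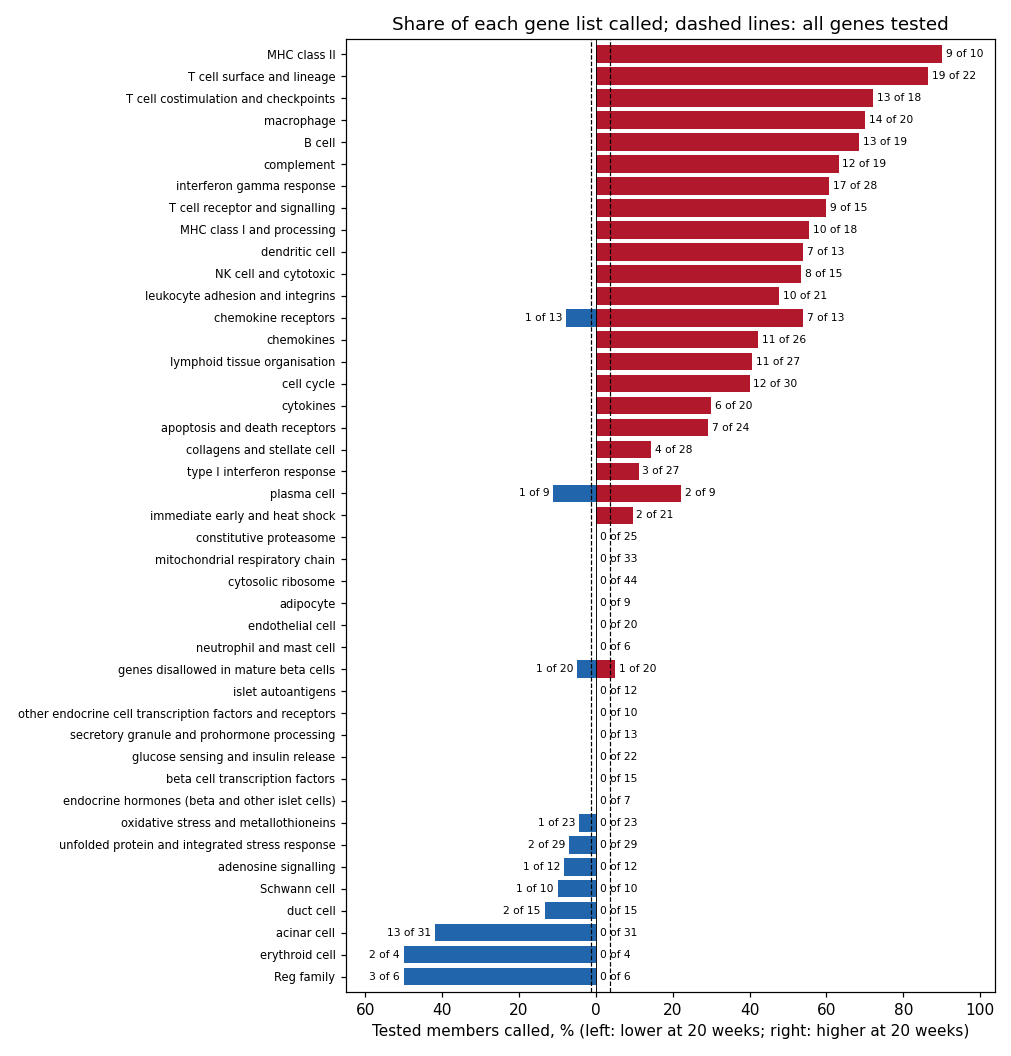
Bars give the share of the tested members of each of 43 gene lists that were called higher (red, to the right) or lower (blue, to the left) at 20 weeks, with counts at the bars, and dashed lines give the shares over all 18070 genes, 3.66% and 1.16%. MHC class II (9 of 10) and T cell surface genes (19 of 22) have the highest shares, the endocrine lists have none, and the Reg, erythroid and acinar lists have the highest shares of lower genes.

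Of 20 cytokine genes, 6 rose and 0 fell. Il1b, the inflammatory cytokine of macrophages, had ratios from -1.52 to -0.28 with a median of -0.71 at 4 weeks and from 2.01 to 3.40 with a median of 2.58 at 20 weeks. The groups did not overlap, with a difference of 3.39 ± 0.36 (adjusted p = 8.56e-07). Most of it lay between 12 and 20 weeks, where the difference was 2.45 (adjusted p = 6.63e-05), against 0.94 between 4 and 12 weeks. Il33, an alarm cytokine of stromal cells, rose by 1.54 ± 0.40, and Ebi3, a subunit of heterodimeric interleukins, by 1.26 ± 0.26, both without a call under median centring. Il6 differed by 1.13 ± 0.62 (adjusted p = 0.173). The 12 week mean ratio of Il6 was 3.90 below that of 4 weeks and 5.03 below that of 20 weeks.

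Complement genes, which opsonise targets and recruit leukocytes, rose in 12 of 19 cases with 0 lower. C3, the central component (probe at chr17:57343416-57343475, mm9), ran from -1.88 to 0.88 with a median of -1.51 at 4 weeks and from 2.24 to 4.14 with a median of 3.20 at 20 weeks, without overlap. The difference was 4.29 ± 0.61 (adjusted p = 2.74e-05; second probe 0.60). The C1 proteases C1s1 and C1ra rose by 2.21 ± 0.29 and 2.18 ± 0.28, and Cfp, the stabiliser of the alternative pathway called properdin, by 2.41 ± 0.38. With median centring 7 of the 19 rose.

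Of 24 genes of apoptosis and death receptors, 7 rose and 0 fell. Pmaip1, the proapoptotic protein Noxa, had ratios from -0.66 to 0.55 with a median of -0.24 at 4 weeks and from 1.15 to 3.39 with a median of 2.41 at 20 weeks, without overlap. The difference was 2.55 ± 0.38 (adjusted p = 4.15e-05). The inflammatory caspases Casp1 and Casp4 rose by 1.80 ± 0.31 and 1.48 ± 0.45, and Tnfrsf1b, a receptor for tumour necrosis factor, by 1.82 ± 0.26 on 1 probe against -0.02 on a second. The immediate early genes Egr2 and Egr1 rose by 1.76 ± 0.28 and 1.49 ± 0.33, the only 2 of 21 on their list. Casp4 and Egr1 lost their calls with median centring.

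Genes of the endocrine cells showed no called change. None of 7 hormones, 15 beta cell transcription factors, 22 genes of glucose sensing and insulin release, 13 secretory granule genes, 10 factors and receptors of other endocrine cells and 12 islet autoantigens rose or fell in limma. At an unadjusted p under 0.05 there were 1, 3, 7, 1, 3 and 3 of them in that order, against 7460 of all 18070 genes. Of these 1, 3, 6, 1, 1 and 3 were lower at 20 weeks and the rest higher. The ages did not overlap for 0, 1, 4, 0, 0 and 1 members, against 9.25% of all genes tested. These were Pax6, Glp1r, Pcx, Ucn3, Stx1a and Ica1, all lower at 20 weeks and below the 2-fold limit. With the scanner's processed signals 1 hormone, 1 glucose sensing gene and 1 autoantigen were called lower. The medians of the 6 lists ran from -0.32 to -0.12. Without 20 week replicate 5 those of the hormones and the granule genes were above 0, at 0.45 and 0.02, and the other 4 ran from -0.07 to just under 0. Without 20 week replicates 5 and 6 all 6 were above 0. With median centring all 6 were below 0, from -0.78 to -0.13. With the scanner's processed signals that of the hormones was 0.01, and the others ran from -0.58 to -0.22. The median difference of the hormones was -0.23 with all mice, 0.64 without 20 week replicates 5 and 6, and -0.75 with median centring.

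Ins1, 1 of the 2 mouse insulin genes (probe at chr19:52339296-52339355, mm9), had ratios from -2.31 to -1.11 with a median of -1.43 at 4 weeks. At 20 weeks they ran from -5.11 to -0.68 with a median of -0.98, where replicate 5 was lowest and the next lowest was replicate 6 at -1.87. The groups overlapped, all 12 mice were below the pool, and the difference was -0.23 ± 0.55 (adjusted p = 0.788), or 0.45 without 20 week replicate 5. Ins2 had ratios from -1.66 to -0.27 with a median of -0.55 at 4 weeks and from -3.66 to -0.25 with a median of -0.75 at 20 weeks, again with replicate 5 lowest and the rest within the 4 week range or close to it. Its difference was -0.53 ± 0.46 (adjusted p = 0.409).

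Gcg, the glucagon gene of alpha cells, differed by -0.43 ± 0.39, Sst, the somatostatin gene of delta cells, by 0.38 ± 0.38, and Ppy, the gene of pancreatic polypeptide, by 0.36 ± 0.62 (adjusted p = 0.42, 0.476 and 0.697). In all 3 hormones 20 week replicate 5 was the lowest of its age, between -3.33 and -2.55. Among the beta cell transcription factors, Pdx1 ran from -1.01 to -0.66 at 4 weeks and from -1.58 to -0.56 at 20 weeks. Its difference was -0.22 ± 0.15 (adjusted p = 0.273). Mafa differed by -0.24 ± 0.16 (adjusted p = 0.251). With the scanner's processed signals and in the deposited value table Mafa was at -1.07 and Pdx1 at -0.55, and neither was called. Both were above their 4 week means at 12 weeks, by 0.43 and 0.64, and their differences from 12 to 20 weeks were -0.65 and -0.88. Slc2a2, the glucose transporter GLUT2, differed by -0.50 ± 0.50, with 20 week replicate 5 at -4.32, and Chga, the granule protein chromogranin A, by -0.30 ± 0.32.

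Of 20 genes that mature beta cells normally keep silent, 1 rose and 1 fell. Itih5, a hyaluronan-binding protein, rose by 1.07 ± 0.30 and lost its call in 6 of 28 alternatives, and Gast, the gastrin gene, fell by 1.11 ± 0.26. Both calls were lost without 20 week replicate 2. Ldha, lactate dehydrogenase A, ran from 1.07 to 1.58 at 4 weeks and from 1.88 to 2.31 at 20 weeks without overlap. Its difference of 0.64 ± 0.11 (adjusted p = 0.000232) was below the 2-fold limit, and a second probe gave -0.13.

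Genes of the exocrine pancreas moved the other way. Of 31 acinar cell genes, 13 fell and 0 rose, with all 31 differences negative and a median of -1.39. The list mean was between 1.02 and 1.76 in the 4 week mice, so the NOD channel gave more acinar signal than the pool at that age. A ratio at a single age includes any constant dye or strain offset of the probes and any deviation of that pool. At 20 weeks it ran from -2.40 in replicate 2 to 1.46 in replicate 6 and 2.07 in replicate 5. Without 20 week replicate 5, 29 of the 31 fell, and without replicates 5 and 6 all 31. Markers of exocrine tissue in an islet preparation also depend on how completely the islets were separated from it, which was not tested.

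Pnliprp1, a lipase-related protein of acinar cells, had ratios from 1.71 to 2.42 with a median of 2.08 at 4 weeks and from -2.28 to 2.22 with a median of 0.01 at 20 weeks. The 4 week mice were close together, while the 20 week mice covered more than 4 log2 units and overlapped them, and the difference was -1.84 ± 0.54 (adjusted p = 0.0137). Ptf1a, the transcription factor of acinar identity, fell by 1.84 ± 0.51, and the lipases Cel and Pnliprp2 by 1.76 ± 0.52 and 1.73 ± 0.59. With replicates 3 to 6 of both ages alone these 4 genes were not called. Pnliprp2 lost its call in 10 of 28 alternatives, 7 of which left out 1 mouse, any of replicates 1 to 4 at 20 weeks or 1 to 3 at 4 weeks. Amy2a5, pancreatic amylase, differed by -1.24 ± 0.57 and did not pass (adjusted p = 0.0998), though it passed without 20 week replicate 5. In the NOD channel alone 2 of the 31 acinar genes fell. The pool part of the change was the larger one in 8 of the 13 that fell, and the median pool signal over the list was 0.76 higher at 20 weeks, against a median NOD change of -0.64.

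The Reg genes encode secreted lectins that the exocrine pancreas makes in inflammation, and 3 of 6 fell, or 6 of 6 without 20 week replicate 5. Reg3a had ratios from -3.45 to 2.93 with a median of 2.10 at 4 weeks, where replicates 3 and 5 were below -3 and the other 4 mice above 1. At 20 weeks it ran from -4.76 to -0.39 with a median of -2.50. The 2 ages overlapped because of the 2 low mice at 4 weeks, and the difference was -3.28 ± 0.98 (adjusted p = 0.0148). Reg3b showed the same 2 low mice and fell by 2.69 ± 0.90 (adjusted p = 0.0276), and Reg3d fell by 2.07 ± 0.57. None of the 3 was called with replicates 3 to 6 alone. Reg3b lost its call in 10 of 28 alternatives, 7 of which left out 1 mouse, 20 week replicate 1, 2 or 4 or 4 week replicate 1, 2, 4 or 6. Probes of these close relatives may not separate them.

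Of 15 duct cell genes, 2 fell and 0 rose. Tff2, a trefoil peptide of mucous epithelia, fell by 1.84 ± 0.49, and Krt19, a keratin of duct cells, fell by 1.15 ± 0.39 (adjusted p = 0.0279). The Krt19 call rested on 4 week replicate 4, at 1.96 against 0.02 to 0.31 in the other 4 week mice, and was lost without it, as in 8 other alternatives of 28. Krt20, a keratin of glandular and intestinal epithelium that was not on the duct list, had ratios from 1.23 to 2.93 with a median of 1.92 at 4 weeks and from -1.24 to -0.23 with a median of -0.53 at 20 weeks. All 4 week mice were above the pool and all 20 week mice below it, with a difference of -2.53 ± 0.33 (adjusted p = 1.01e-05). Its NOD signal fell by 4.13 and its pool signal fell by 1.60.

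**Figure D4:**
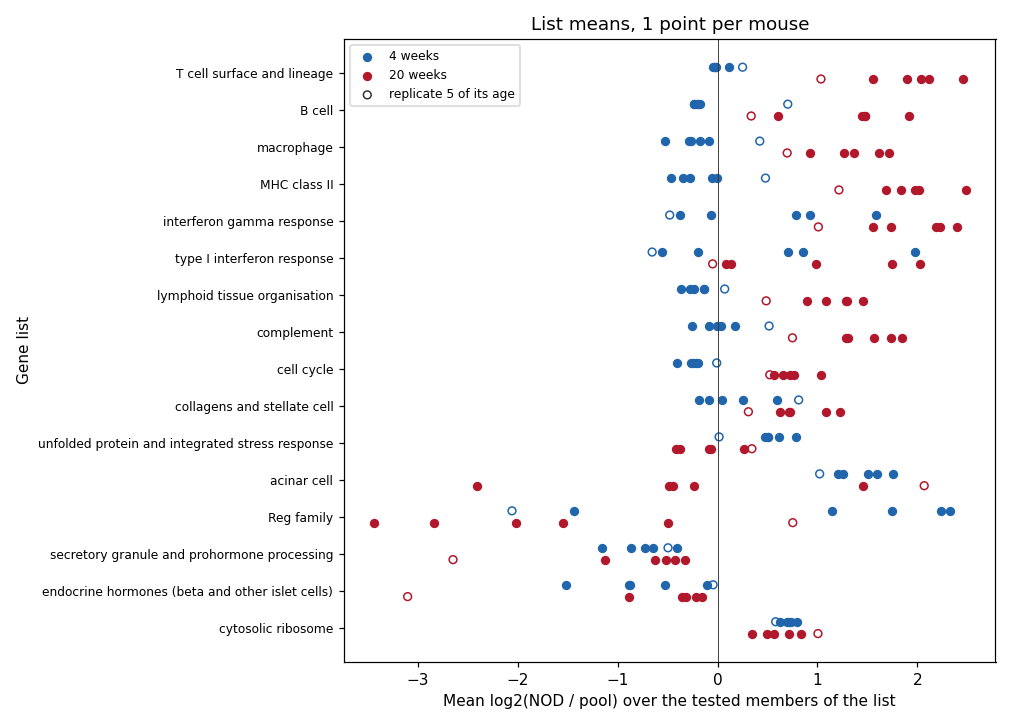
Each point is the mean log2(NOD / pool) of 1 mouse over the tested members of a gene list, 4 weeks in blue and 20 weeks in red, with replicate 5 of each age as an open circle. T cell, MHC class II, complement and cell cycle lists separate the ages, 20 week replicates 5 and 6 lie with the 4 week mice for acinar genes, and 20 week replicate 5 alone is far below the other mice for hormones and granule genes.

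Genes of the unfolded protein and integrated stress response, which adjust protein folding and synthesis to the secretory load, had 27 of 29 differences below 0, of which 2 passed as lower, and a median of -0.46. None rose. Without 20 week replicate 5, 7 fell. Creld2, a folding factor induced by stress of the endoplasmic reticulum, had ratios from 0.73 to 1.53 with a median of 1.14 at 4 weeks and from -0.79 to 0.33 with a median of -0.28 at 20 weeks. The groups did not overlap and the difference was -1.39 ± 0.18 (adjusted p = 1.08e-05). It was lowest at 12 weeks, 2.30 below 4 weeks, and 0.91 higher again at 20 weeks. Pdia4, a disulfide isomerase, fell by 1.28 ± 0.19 (adjusted p = 3.2e-05). Of the 23 genes of oxidative stress and metallothioneins, Prdx4, a peroxiredoxin of the secretory pathway, was the only one called, with a fall by 1.21 ± 0.44 that was lost in 14 of 28 alternatives.

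Cell cycle genes rose in 12 of 30 cases with 0 lower, and here the pool contributed more than the NOD islets. Mki67, which marks dividing cells, had ratios from -1.21 to -0.40 with a median of -0.86 at 4 weeks and from 1.46 to 2.35 with a median of 1.68 at 20 weeks. The 4 week mice were all below the pool and the 20 week mice all above it, with a difference of 2.67 ± 0.22 (adjusted p = 3.23e-08; second probe 1.32). Its NOD signal was 0.60 higher at 20 weeks, while its pool signal fell by 2.08. Birc5, a protein of mitotic spindles, rose by 2.66 ± 0.22 with a NOD change of 0.43 and a pool signal that fell by 2.22. The DNA replication helicase subunits Mcm3 and Mcm6 rose by 2.55 ± 0.23 (second probe 1.2) and 2.24 ± 0.19, with NOD changes of 1.18 and 1.16. The pool part was the larger in 10 of the 12 that rose, and 3 of the 30 rose in the NOD channel alone. The pool is 1 sample per age, so its change has no replicate.

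Several of the genes above were near background in young islets, and only some arrays measured them there. Of the 6 NOD channels at 4 weeks, 1 was well above background for Cd3d, Cd8a, Cst7, Cd209b, Cd3g, Txk, Tnfrsf13c, Ms4a1, H2-DMb1, Cxcr5, Fut7, Cxcl13 and Gzmb. There were 2 for Ms4a4b, Ifng, Cxcr3, Pdcd1 and Cd79b, 3 for Ccl8 and Pou2af1, 4 for Icos, Ccr7, Cxcl9, Itgb7 and Fabp2, and 5 for Ubd, Nkg7, Ifit1 and Cd5. In the 4 week pool channels the count was 1 for Ifng, Cxcl13 and Gzmb, 2 for Cxcr3 and Klrd1, and 3 for Ccl8 and Cd4. The sizes of some differences moved with the scaling. Of the 105 called genes named here, 18 had a difference over 1.5 times as large with the scanner's processed signals, as did 16 of 103 in the deposited table. With the scanner's signals Ms4a4b was at 7.15 in place of 3.91, Txk at 6.91 in place of 2.72, Cst7 at 5.33 in place of 2.03, H2-DMb1 at 5.21 in place of 2.41 and Ifng at 5.03 in place of 2.76. The median of the T cell costimulation list was 3.66 in place of 1.16.

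Over all genes the NOD channel made the larger part of the change in 603 of the 661 genes called higher and in 176 of the 210 called lower. In the NOD channel alone, 971 genes changed (5.37%), 752 higher (4.16%) and 219 lower (1.21%). Exceptions among the lowest genes were Cd209b and Fabp2. Cd209b, a lectin of marginal zone macrophages, had ratios from -0.66 to 2.80 with a median of -0.42 at 4 weeks, with replicate 5 far above the others, and from -3.79 to -2.32 with a median of -2.80 at 20 weeks. The groups did not overlap and the difference was -3.03 ± 0.60 (adjusted p = 0.000725). Its NOD signal changed by -0.02 and its pool signal by 3.01, a second probe gave -1.65, and the call was lost with the scanner's processed signals and in the deposited table. Fabp2, the fatty acid-binding protein of enterocytes, fell by 2.40 ± 0.35 (adjusted p = 2.92e-05) while its NOD signal was 0.60 higher and its pool signal 3.00 higher, and its second probe gave -0.30.

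**Figure D5:**
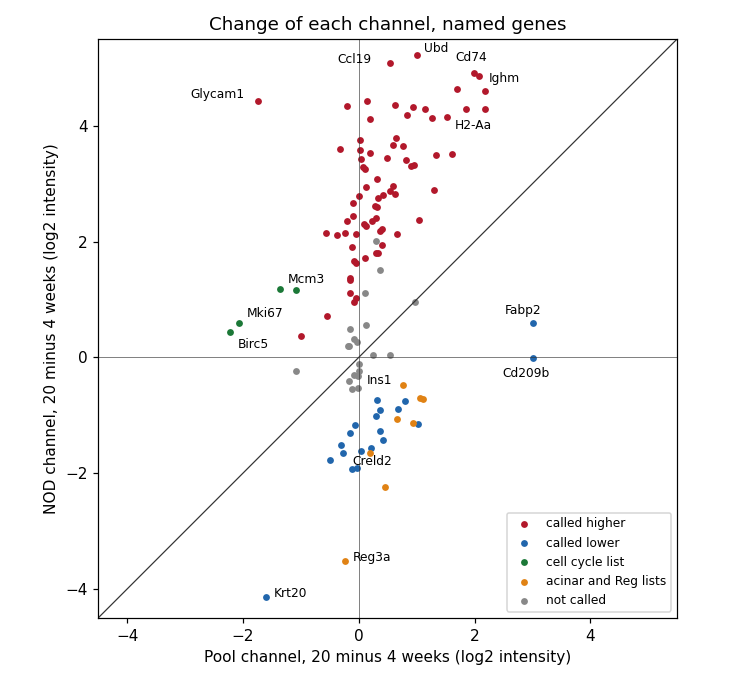
Each point is 1 of the 126 named genes, with the change of its pool signal from 4 to 20 weeks on the x axis and the change of its NOD signal on the y axis, both in log2 intensity. Most red points lie high above the diagonal near a pool change of 0, Mki67, Birc5 and Mcm3 lie at pool changes of -2.08, -2.22 and -1.37, and Cd209b and Fabp2 lie at pool changes of 3.01 and 3.00.

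The other genes among the 10 lowest that met the same conditions as the 10 highest were Gls2, Itln1, Mia, Hbb-bt, Gpc3, Cnn1 and Hba-a2, beside Krt20, Fabp2 and Cd209b. Gls2, the liver-type glutaminase, ran from 1.61 to 2.47 with a median of 1.74 at 4 weeks and from -1.60 to 1.07 with a median of -0.48 at 20 weeks, where replicate 5 was highest. It fell by 2.18 ± 0.41 (adjusted p = 0.000504). Itln1, an intestinal lectin, fell by 1.88 ± 0.32, and Mia, a secreted protein of cartilage and melanocytes, by 1.80 ± 0.32, with pool changes of -0.03 and -0.12. Gpc3, a fetal glypican, fell by 1.64 ± 0.26. Cnn1, a protein of smooth muscle, was at 2.53 in 4 week replicate 2 against -1.03 to -0.15 in the other 4 week mice, and its fall by 1.56 ± 0.46 was lost with replicates 3 to 6 alone.

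Of 4 erythroid genes listed and tested, the 2 alpha globins fell, as did the beta globin Hbb-bt: Hbb-bt by 1.78 ± 0.40 and the alpha globins Hba-a2 and Hba-a1, near-identical copies, by 1.56 ± 0.33 and 1.28 ± 0.33. Of 28 genes of collagens and stellate cells, 4 rose and 0 fell. Thy1, a surface protein of stromal cells that mouse T cells also carry, rose by 1.66 ± 0.26 (second probe 0.77). Vim, an intermediate filament of mesenchymal cells and leukocytes, rose by 1.52 ± 0.26, Col1a2 by 1.36 ± 0.35 and Mgp by 1.26 ± 0.28. Vim, Col1a2, Mgp and Hba-a1 lost their calls with median centring. The pool signal of Col1a2 fell by 1.00, against a NOD change of 0.36. Col1a1, the other chain of type I collagen, differed by 0.85 ± 0.38 and did not pass (adjusted p = 0.0984).

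Of 10 Schwann cell genes 1 fell. Erbb3, a neuregulin receptor, fell by 1.31 ± 0.36, and like Fut7 it was not called with replicates 3 to 6 of both ages alone. Adora2a, an adenosine receptor and the only gene called of 12 on its list, was called with a fall by 1.06 ± 0.38 on 1 of its 2 probes and was 1.07 higher on the other, so no direction is given for it. None of 9 adipocyte genes, 44 cytosolic ribosomal proteins or 33 genes of the mitochondrial respiratory chain changed in limma, with list medians of -0.09, -0.04 and -0.04 and with 2, 9 and 12 members at an unadjusted p under 0.05.

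The 12 week mice divide the differences between 4 and 20 weeks into 2 intervals. Their pool channel was dimmer, with 39.3% to 43.6% of the probes well above background. At 4 weeks it was 52.8% to 59.8% and at 20 weeks 56.1% to 60.4%. Each interval also includes any difference between 2 pools. The part of the 12 week pool in these values, and in the 12 week values above, was not tested. Between 4 and 12 weeks 1094 genes changed (6.05%), 538 higher (2.98%) and 556 lower (3.08%), and between 12 and 20 weeks 435 (2.41%), 363 higher (2.01%) and 72 lower (0.398%). These comparisons share arrays with each other and with the one above, so their values are set side by side only. Ccl19 differed by 4.64 from 4 to 12 weeks and by -0.08 from 12 to 20 weeks, and Cd74 by 2.99 and -0.08. Glycam1 differed by 4.69 and 1.48 (adjusted p = 0.133 for the second). Of the MHC class II genes 8 rose by 12 weeks and 0 after.

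Other genes changed mainly after 12 weeks. Vcam1 differed by 0.45 and then by 1.92 (adjusted p = 0.00128), and Cd83 by 0.56 and then by 2.03 (adjusted p = 0.000201). Icos rose in both intervals, by 2.35 and 2.18. Among the chemokines 4 rose and 4 fell from 4 to 12 weeks, and 14 rose from 12 to 20 weeks. Ratios of the type I interferon genes turned: 2 rose and 7 fell from 4 to 12 weeks and 8 rose from 12 to 20 weeks. Of the stress response genes 14 fell from 4 to 12 weeks and 5 rose from 12 to 20 weeks. Of the acinar genes 21 fell from 4 to 12 weeks and none changed after.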

How the data were processed

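Islet RNA of single female NOD mice (Cy5) and of age-matched NOD.B10 pools (Cy3) was hybridised to Agilent 4×44K two-colour arrays. Per the file headers, the deposited scanner files hold the mean and background intensity of each spot and a log10 ratio after dye normalization by Feature Extraction 10.7.3.1. The deposited value table holds log2 ratios by the authors for part of the probes. Both ratios served as alternatives only.

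Intensities were background-corrected (normexp, offset 50) and loess-normalized within arrays in limma 3.58.1 (R 4.3.3). Of 45018 spots, 1639 controls had weight 0, and 44 flagged values were left out. Probes well above background in either channel on at least 6 of 24 arrays were kept, 25910 of 41174, and the brightest probe stood for its gene, which gave 18070 genes. Names came from the files, updated through RefSeq accession for 27137 probes, current symbol for 4097 and older symbol for 572; 9368 kept the name in the files. The fit had 1 mean per age over 24 arrays, and p-values were Benjamini-Hochberg adjusted over all genes. Channel values were scaled between arrays by the Aquantile method. The script was tested on simulated data. Named genes were the 10 highest and 10 lowest changed genes meeting the conditions given, up to 4 changed members of each of 43 lists, and 38 genes given whatever their result; results for some of these genes are not reported here. Members, lists and rules were chosen with earlier results of these data known. Promoters matched 11878 of the genes tested. Probe positions are mm9, as the files give them; exon and UTR annotation of that build was not used here. Alternatives covered normalization, background, filters, probe choice, blocks, array weights and each left-out mouse.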

Additional observations from a re-analysis of the deposited data

Results flagged for a closer look

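Of 252 groups of 6 mice tested, 31 held 1 mouse whose log2 ratio lay far from the other 5; chance flags about 5% of such groups. Of the 31, 18 were 4 week replicate 5 and 5 were 20 week replicate 5. No cause was tested.

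In 4 week replicate 5, the B cell genes stood above the other 4 week mice: Ighm at 2.69, Cd79b at 2.06, Ms4a1 at 1.72, Pou2af1 at 1.67, Mzb1 at 1.06 and Tnfrsf13c at 0.80, against values of at most 0.28 in the other mice. The follicle chemokine Cxcl13 was at 2.28, where the other 5 mice ran from -0.20 to -0.01. The marginal zone lectin Cd209b was at 2.80, against -0.66 to -0.37. Myeloid and antigen presentation genes were also high in that mouse, with Wdfy4 at 1.74, Lyz1 at 1.51, Cfp at 0.52 and H2-DMb1 at -0.88. So were the homing genes Itgb7 at 1.02, Fut7 at 0.03 and Glycam1 at -1.60, and the T cell genes Cd5 at 0.46 and Cd3d at 0.11. Ldha was low there, at 1.07 against 1.40 to 1.58.

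In 20 week replicate 5, Ins1 was at -5.11, Slc2a2 at -4.32, Ppy at -3.33 and Sst at -2.55, below every other 20 week mouse, and Glycam1 was at 0.36, against 2.89 to 3.97 in the others. This array also had the fewest probes well above background in the NOD channel.

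Among the other 4 week mice, replicate 2 stood apart for Cnn1 at 2.53, Icos at -0.20 and Tnfrsf4 at -0.04, replicate 3 for Gls2 at 2.47, Cd4 at 0.62 and Ins1 at -2.31, and replicate 4 for Krt19 at 1.96 and Birc5 at -1.02.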

How the results depend on the processing

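Of the 105 named genes that were called, 64 kept their call in every alternative run, 41 lost it in at least 1, and 1, Adora2a, reversed, to 0.005 as the mean of its probes. Median centring gave 382 higher and 334 lower genes. The scanner's processed signals gave 2302 changed genes, 1383 higher and 919 lower, and the deposited value table, over 15722 genes, gave 1726, 1076 higher and 650 lower. These 2 scalings moved the median of all genes to -0.12. Without the 2-fold limit 5408 genes passed, 2888 higher and 2520 lower. Array weights gave 400 lower genes, and the 12 arrays of both ages alone 112. Leaving out 1 mouse at a time gave 671 to 1222 changed genes, 571 to 806 higher and 85 to 416 lower, and leaving out 20 week replicates 5 and 6 gave 1531, with 581 lower. Replicates 3 to 6 of both ages, 1 slide each, an alternative chosen after seeing the data, gave 463, 420 higher and 43 lower. With replicate number as a block 855 genes changed; numbers name different mice, whose same-number deviations correlated at -0.424 to -0.126, and in 0 of 6 cases best with their own number. Slide as a random block gave 832. The other alternatives kept the counts within 1.5 times. Weak signal limits the fold of 73 called genes not measured in all groups and channels. On no array was the pool well above background for 65 of them at 4 weeks and 7 at 20 weeks. For the NOD channel these numbers were 37 and 2. The cause of each of these shifts was not tested.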
